A study of Mus musculus with 14 samples.

Results

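The Nkx genes are homeobox genes, and 9 of them were examined here for the repressive histone mark H3K27me3 in cultured mouse hippocampal neurons with and without the long noncoding RNA NeuID. The members were Nkx2-1, Nkx2-2, Nkx2-3, Nkx2-5, Nkx2-6, Nkx2-9, Nkx3-2, Nkx6-1 and Nkx6-2. Every peak of the authors' deposited list that overlapped the body of a member or the 5 kb on either side of it was taken, which gave 68 of the 23668 listed peaks. The members were chosen by measured values, since the knockdown mean over the start of Nkx2-6 was already known to be low and the family was gathered around it. That value is therefore described and is not a finding, and the same holds for its place among the family. The question put to the remaining peaks was whether they shared the low value.

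Primary hippocampal neurons were prepared from wild-type (WT) embryonic CD1 mice of both sexes and treated after a week in culture with gapmers packed into lipid nanoparticles. A gapmer is a short antisense oligonucleotide, DNA in the middle and chemically modified at both ends, that directs the cleavage of the RNA it pairs with. The control group received a negative control (NC) gapmer and the knockdown group a gapmer against NeuID, so that the nanoparticles and the transfection were common to both groups. ChIP-seq used an antibody against H3K27me3, and the labels list 6 control and 6 knockdown libraries with 1 input library for each condition. No label ties a library to a culture or a litter, and the level of NeuID itself cannot be read from ChIP-seq of this mark.

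NK-type homeobox genes encode transcription factors that bind DNA through a homeodomain and set cell fate in the embryo. Several act in the ventral neural tube and forebrain, where Sonic hedgehog signalling sets the bands in which they are expressed. Others act in the heart and pharynx, in the mesenchyme of the gut and spleen, and in cartilage. Genes of this kind are classical targets of Polycomb repressive complex 2, which trimethylates H3K27 in broad domains over CpG-rich promoters where the gene is silent.

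The values used are group means: for each peak the log2 of normalized reads in the control, in the knockdown and over all libraries. All values below are these authors' means or are computed from them, and a difference is the knockdown log2 mean minus the control log2 mean. The authors' own comparison, with its p-value for each peak, is in the same table and was left unused. No spread between libraries was used with a group mean, so no difference below was tested or set against replicate error. The overall mean weighted the control by 0.545, which is the weight that 6 control and 5 knockdown libraries would give, although 12 ChIP libraries are labelled. The depth of the libraries is unknown. A lower mean in a culture may come from fewer cells carrying the mark or from less mark per cell, and these cannot be told apart. As a check of the cell type, H3K27me3 peaks within 1 kb of the gene start were found at 2 of 10 neuronal markers (Neurod2 and Prox1) and at 4 of 5 markers of the oligodendrocyte lineage (Olig1, Olig2, Sox10 and Pdgfra). None of 5 astrocyte and 4 microglial markers held such a peak, and a gene without the mark need not be expressed.

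The DNA under these peaks differs in how densely it carries CpG, the dinucleotide in which Polycomb target promoters are rich. The stretches below come from the start peak of Nkx2-6, from a second peak of the same gene, and from peaks of 3 other members. A stretch does not give the density of its whole peak. In the order shown, the whole peaks held 2.77, 5.88, 4.27, 7.89 and 0.63 CpG per 100 bases. Each holds 150 bases of mouse build mm10, taken outside untranslated exons and away from the start site itself, and is written 5′ to 3′ on the strand of the gene, and capitals mark every CpG.
Nkx2-6, within the peak over the gene start, chr14:69172278-69172427, plus strand, 9 CpG: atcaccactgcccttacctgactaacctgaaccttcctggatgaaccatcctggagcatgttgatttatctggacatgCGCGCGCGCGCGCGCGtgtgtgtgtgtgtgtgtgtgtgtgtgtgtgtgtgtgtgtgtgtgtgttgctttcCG
Nkx2-6, within the peak over the last exon, chr14:69174617-69174766, plus strand, 17 CpG: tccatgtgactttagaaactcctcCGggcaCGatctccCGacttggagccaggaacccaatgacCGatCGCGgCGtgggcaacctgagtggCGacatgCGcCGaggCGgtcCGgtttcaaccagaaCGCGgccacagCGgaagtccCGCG
Nkx2-3, within the peak over the gene start, chr19:43612729-43612878, plus strand, 10 CpG: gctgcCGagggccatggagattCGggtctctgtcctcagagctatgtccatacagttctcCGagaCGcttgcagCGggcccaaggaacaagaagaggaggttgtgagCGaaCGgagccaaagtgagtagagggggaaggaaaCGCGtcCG
Nkx6-2, within the peak over the gene start, chr7:139581714-139581863, minus strand, 24 CpG: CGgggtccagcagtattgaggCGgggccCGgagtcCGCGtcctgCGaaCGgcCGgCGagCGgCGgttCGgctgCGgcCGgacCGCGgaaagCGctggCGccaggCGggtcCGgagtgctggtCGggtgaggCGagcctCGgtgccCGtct
Nkx2-2, within the upstream peak with the lowest difference of the family, chr2:147196950-147197099, minus strand, 3 CpG: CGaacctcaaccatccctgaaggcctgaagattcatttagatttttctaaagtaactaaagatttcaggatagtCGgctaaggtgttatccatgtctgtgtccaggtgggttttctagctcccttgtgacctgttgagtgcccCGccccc
The CpG of the Nkx2-6 start stretch lie mostly in a run of alternating C and G that passes into a run of TG, whereas those of Nkx6-2 are spread along the stretch.

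Taken as a group, the 68 peaks were stronger and wider than the list as a whole. Their overall log2 mean had a median of 4.43, or 21.5 normalized reads, against 2.93 for all peaks. They ranged from 260 to 7783 bp with a median of 990 bp, and 34 of 68 reached 1 kb, against 9.72% of all peaks. CpG density had a median of 2.38 per 100 bases in member peaks and of 1.23 in all peaks. By position, 22 peaks lay upstream of a gene, 18 downstream, 15 touched a coding exon, 9 lay in an intron and 4 in an untranslated part. At Nkx2-2 the peaks counted as intronic include some that lie before the first exon of its coding transcripts. All 9 genes had 1 peak over the annotated start.

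The knockdown mean was at least 2-fold below the control mean in 11 of the 68 peaks (16.2%), against 20.6% of all listed peaks. It was at least 2-fold above the control in 3 peaks (4.41%), against 20.4% of all listed peaks. The share of lower peaks was thus not above that of all listed peaks, most of which are weaker. Where the log2 mean over all libraries was at least 4, 12.2% of 41 member peaks were lower, against 9.12% of all listed peaks. The start peak of Nkx2-6, which chose the family, is among these. At that strength 0 member peaks were higher, against 5.02%. The differences had a median of -0.17 in the family against -0.02 over all peaks. The quartiles were -0.64 and 0.19, and 44 of 68 differences were below 0 (64.7%), against 50.8% of all listed peaks. No member peak was listed at 0 in either group. Of all 23668 listed peaks, 777 were at 0 in the control and 794 in the knockdown. Summed over all member peaks, the knockdown mean came to 88.6% of the control, and to 90.4% without the start peak of Nkx2-6, while the sum over all listed peaks came to 97.1%. All listed peaks with an overall log2 mean of at least 5 (32 normalized reads) came to 92.9%. Member peaks of that strength came to 89.7%, and to 92.1% without the start peak of Nkx2-6. Among peaks of that strength, 70.4% of the members without that start peak and 59.3% of all listed peaks were below 0.

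Large differences sat mainly in weak peaks. Of the 14 member peaks past 2-fold, 9 had an overall log2 mean below 4, and across the 68 peaks the size of the difference went with the overall mean at a Spearman's rho of -0.39 (-0.28 over all listed peaks). These peaks come from the same libraries and neighbouring peaks share a domain, so the coefficient is a description. Among the 28 member peaks with an overall log2 mean of at least 5, 2 were lower by 2-fold or more (7.14%), against 3.01% of all peaks of that strength. None of the 28 was higher by 2-fold, against 1.25%. The 2 lower peaks were the start peak of Nkx2-6 and a peak upstream of Nkx2-3 that lay just past the limit. Without the start peak of Nkx2-6, which chose the family, 1 of the 27 strong peaks was lower (3.70%), near the share of all peaks of that strength, and the 27 ranged from -1.004 to 0.90.

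Peaks of like strength give the spread against which a member can be read. When all listed peaks were sorted by the mean of both group values into bins of 0.5 log2 units, 65 of the 68 member peaks fell inside the central 95% of their bin. The 3 outside (4.41%) were the start peak of Nkx2-6, the chosen value, and 2 peaks of Nkx2-2. Of the Nkx2-2 peaks, a peak inside the annotated gene but before its coding transcripts lay below its bin at -2.18. A wide peak over a coding exon lay above its bin at 0.90. The bins were chosen after seeing the data.

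**Figure D1:**
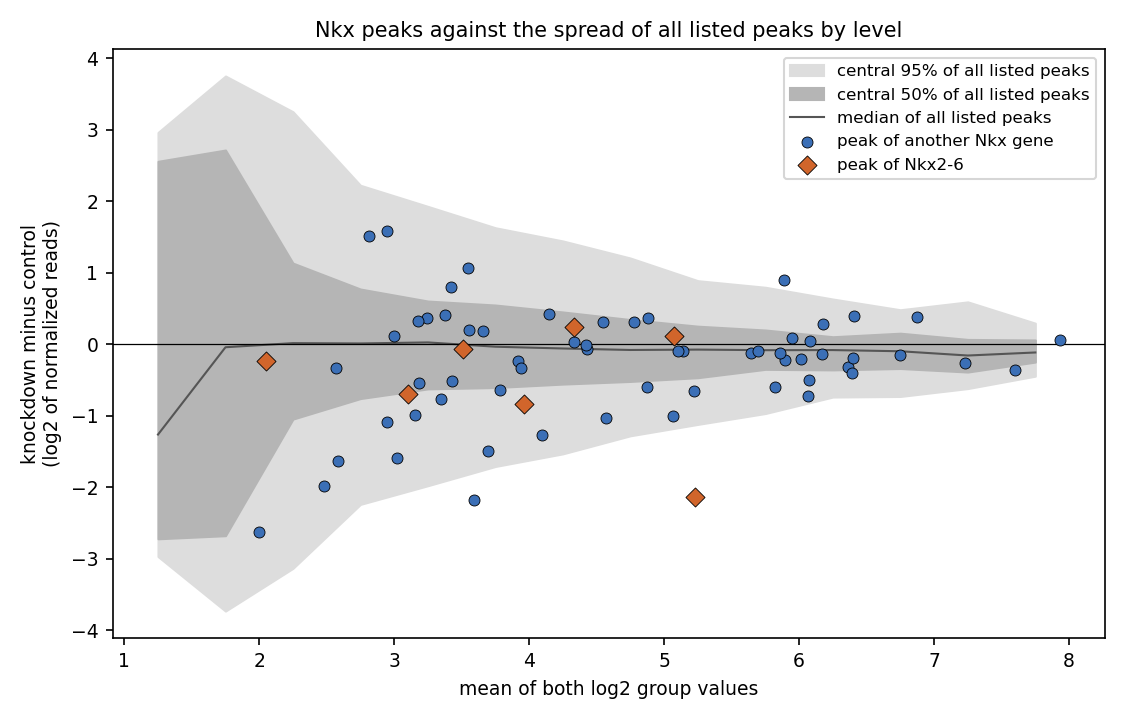
Difference between the groups (knockdown minus control, log2 of normalized reads) against the mean of both log2 group values for the 68 peaks of 9 Nkx genes; diamonds are peaks of Nkx2-6 and circles those of the others. Grey bands hold the central 95% and 50% of all listed peaks in bins of 0.5 log2 units, and 65 of 68 Nkx peaks lie inside the outer band.

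Nkx2-6 encodes a factor of the pharyngeal pouches and early heart. Its start peak (chr14:69170662-69172464, 1803 bp) reached from -1140 bp to 662 bp relative to the annotated start and covered the first coding exon. It also overlapped the noncoding gene 1700092C10Rik, so the signal cannot be given to either gene alone. The control mean was 6.30 and the knockdown mean 4.16 on the log2 scale, or 78.9 and 17.8 normalized reads. The knockdown thus held 22.6% of the control. As the value that chose the family, it is given without a rank or a test. For orientation, the 945 other listed peaks whose mean level lay within 0.5 had a median difference of -0.05 and quartiles of -0.46 and 0.32.

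The other 6 peaks of Nkx2-6 did not share this size of difference. Summed, they held 91.7% of the control in the knockdown. The peak that ended 248 bp before the start peak had a control mean of 4.22 and a knockdown mean of 4.45 (difference 0.24). The first intronic peak, 498 bp after it, had 4.37 and 3.54 (-0.83). Farther into the gene, the second intronic peak had 3.55 and 3.48 (-0.07). The peak over the last exon had 5.01 and 5.14 (0.12), so at the far end of the gene the knockdown mean was not the lower one. The 2 farthest upstream peaks had 3.44 and 2.75 (-0.69), and 2.17 and 1.94 (-0.23). Over these 6 peaks the differences ran from -0.83 to 0.24 with a median of -0.15, and 4 were below 0.

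**Figure D2:**
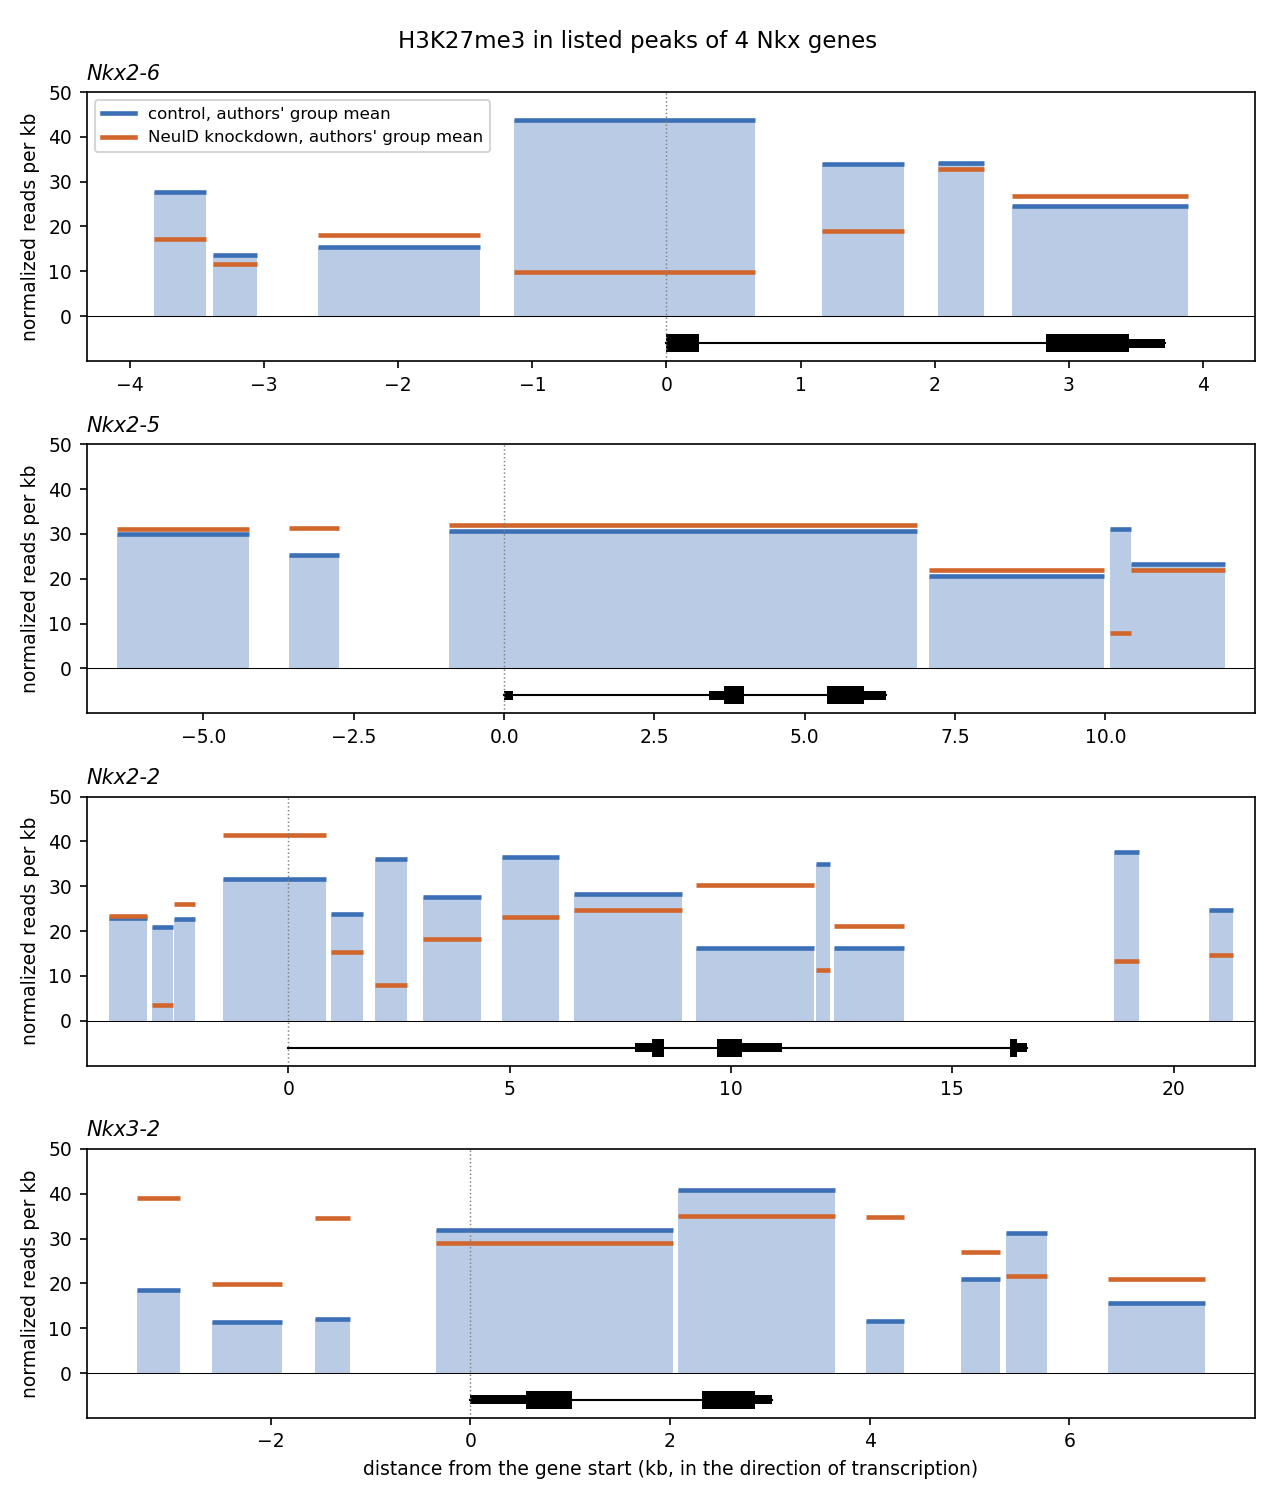
Normalized reads per kb (vertical axis) of each listed peak against distance from the gene start in kb, in the direction of transcription, for Nkx2-6, Nkx2-5, Nkx2-2 and Nkx3-2; blue bars and lines are the authors' control means, orange lines the knockdown means, and black boxes the exons (tall where coding). The start peak of Nkx2-6, which chose the family, has 43.7 reads per kb in the control and 9.90 in the knockdown. At Nkx3-2 most of the weak flanking peaks have the knockdown above the control.

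Nkx2-5, the cardiac factor close in role to Nkx2-6, did not share the low value at its start. Its start peak (chr17:26838140-26845922) was the widest of the family at 7783 bp and covered the whole gene. The control mean was 7.90 and the knockdown mean 7.96, a difference of 0.06. The sum over its 6 peaks was 433 normalized reads in the control and 445 in the knockdown, or 102.6%. Its only peak past 2-fold was a 358 bp stretch 10072 bp downstream of the start (chr17:26834580-26834937), with 3.47 and 1.48. The peaks on both sides of that stretch had differences of -0.09 and 0.08.

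Nkx2-3 patterns the mesenchyme of gut and spleen. Its start peak (chr19:43611866-43613643) had a control mean of 6.33 and a knockdown mean of 5.83, a difference of -0.50. This was the lowest start-peak difference of the 8 genes other than Nkx2-6. The next peak along the gene (chr19:43613829-43617717), over the last exon, was the widest of this gene and had 6.68 and 7.07 (0.38). Neighbouring strong peaks of Nkx2-3 therefore stood on opposite sides of 0. The farthest upstream peak (chr19:43606438-43607442) had 5.57 and 4.56, so that the knockdown held 49.9% of the control, just past the 2-fold limit. The peak just short of the limit, at 50.1%, lay downstream of Nkx6-1 (chr5:101653300-101653559). Summed over 6 peaks, Nkx2-3 held 85.8% of the control (difference -0.22), and over the gene body alone the difference was 0.06.

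Nkx3-2, a factor of sclerotome and cartilage also called Bapx1, was the member with peaks past 2-fold in the upward direction. They were a downstream peak (chr5:41760153-41760535) with 2.15 and 3.74 (1.59), and upstream peaks with 2.06 and 3.57 (1.51, chr5:41765712-41766055) and with 3.01 and 4.08 (1.07, chr5:41767414-41767846). All 3 were weak, with between 4.16 and 8.04 normalized reads in the control. Its start peak (chr5:41762473-41764842) had 6.24 and 6.10 (-0.14), and the strong peak over the last exon had 6.00 and 5.78 (-0.22). The 8 peaks off the start summed to 120.9% of the control and all 9 to 109.6% (difference 0.13). Over the gene body alone the summed difference was -0.18, so its direction rested on the weak flanking peaks.

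Among the genes of the ventral neural tube, Nkx2-2 specifies V3 interneurons and oligodendrocyte precursors and also acts in the pancreas. It held the most peaks, 14, and the widest spread. Its peak over the annotated gene start (chr2:147193382-147195728) had a control mean of 6.21 and a knockdown mean of 6.61 (0.40). This was the highest start-peak difference of the 9 genes. The exons of its protein-coding transcripts begin only 7839 bp into the gene, so this peak covers no start of a coding transcript. The peak that covers the first of these exons (chr2:147185351-147187794), beginning 6449 bp into the gene, had 6.12 and 5.92 (-0.20). The widest peak of the gene (chr2:147182366-147185041), over the coding exon that follows, had 5.44 and 6.34 (0.90). Weaker peaks of the same gene were low in the knockdown. A peak before the coding transcripts (chr2:147191564-147192276) had 4.68 and 2.501 (-2.18), and an intronic peak (chr2:147182017-147182317) had 3.40 and 1.77 (-1.63). The upstream peak whose sequence is shown above (chr2:147196843-147197317) had 3.31 and 0.69, or 9.92 and 1.61 normalized reads, the lowest difference of the family at -2.62. The peaks on both sides of it had 0.20 and 0.03. A downstream peak (chr2:147175020-147175596) had 4.44 and 2.95 (-1.496). Summed over 14 peaks with differences in both directions, the knockdown held 93.3% of the control. Many of these peaks overlap the antisense transcript Nkx2-2os as well.

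Nkx2-9 is expressed beside the floor plate and is the neighbour of Nkx2-1 on chromosome 12. Its start peak (chr12:56611595-56613840) had 6.49 and 6.30 (-0.19). A downstream peak (chr12:56606955-56608047) had 4.72 and 3.46 (-1.27), while its neighbours had 0.41 and -0.00. The sum over 5 peaks was 85.8% of the control.

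Nkx2-1 specifies the medial ganglionic eminence, from which cortical and hippocampal interneurons arise, and also thyroid and lung. Its start peak (chr12:56532935-56537900) had 7.78 and 7.42 (-0.36), the second highest control level of the 9 after Nkx2-5. The peak over its 3′ end had 6.43 and 5.70 (-0.73). Upstream peaks had 3.81 and 2.22 (-1.59, chr12:56538145-56538561) and 5.08 and 4.06 (-1.03, chr12:56539809-56540816). The sum was 79.1% of the control, the lowest of the 8 genes other than Nkx2-6, whose 61.0% includes the value that chose the family. In 7 of its 8 peaks the knockdown mean was the lower at Nkx2-1. The exception was a downstream peak that also overlaps Sfta3-ps, with 6.04 and 6.32 (0.29).

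Nkx6-1 and Nkx6-2, closely related repressors that pattern motor neuron progenitors, had small differences at their start peaks. The Nkx6-1 start peak (chr5:101662056-101665938) had 7.36 and 7.10 (-0.26), and the broad upstream peak had 6.59 and 6.19 (-0.40). A weak peak in its 3′ untranslated part (chr5:101658791-101659191) had 3.48 and 2.40 (-1.08). The Nkx6-2 start peak (chr7:139580748-139583978) had 6.82 and 6.67 (-0.15). All 4 peaks of Nkx6-2 lay between -0.34 and -0.10. Their summed knockdown signal was 85.5% of the control at Nkx6-1 and 89.7% at Nkx6-2.

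**Figure D3:**
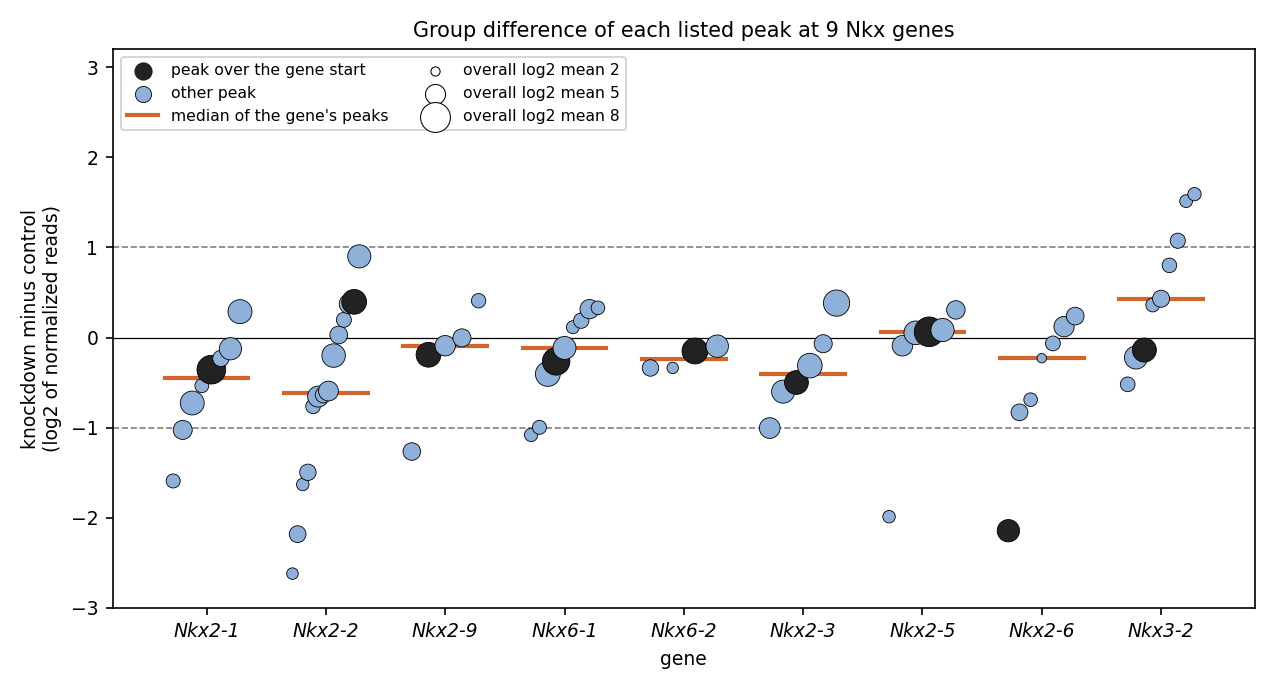
Difference between the groups (knockdown minus control, log2 of normalized reads) for each of the 68 listed peaks by gene; black points are peaks over the gene start, blue points all others, point area grows with the overall log2 mean, orange lines are medians and dashed lines mark 2-fold. The black point of Nkx2-6, the value that chose the family, lies at -2.14, and the other 8 lie between -0.50 and 0.40.

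Set side by side, the start peaks of the other 8 genes had differences from -0.50 to 0.40 with a median of -0.17, and 6 of the 8 were below 0. The 0.40 was that of Nkx2-2, whose peak over the start of its coding transcripts had -0.20. The start peak of Nkx2-6 chose the family, so its distance from these 8 is not a finding. On the summed scale the other 8 genes ranged from -0.34 to 0.13, with Nkx2-6 at -0.71. By the median of its peaks, Nkx2-6 stood at -0.23, above Nkx2-2 at -0.61. The 5 members expressed in the embryonic nervous system (Nkx2-1, Nkx2-2, Nkx2-9, Nkx6-1 and Nkx6-2) had 8 lower peaks and 0 higher among 40. The background of 20.6% lower and 20.4% higher holds mostly weaker peaks, since these 40 had a median overall log2 mean of 4.38. Where that mean was at least 4, all listed peaks had 9.12% lower and 5.02% higher. No share at like strength was taken for the 40 peaks, so their counts are given without a reading against a background. The median difference of these 40 peaks was -0.25 and their sum 86.1% of the control. The 4 other genes, Nkx2-6 among them, had 3 lower and 3 higher peaks among 28 (10.7% each), a median of -0.07 and a sum of 92.1%. Without the start peak of Nkx2-6, which chose the family, they had 2 lower and 3 higher among 27 and a sum of 96.8%.

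Adjacent peaks of a gene were compared within the window of each member. Across 59 pairs of adjacent member peaks, a median of 251 bp apart, 33 had differences of the same sign, and Spearman's rho across pairs was -0.04. The 11 lower peaks had 19 adjacent peaks, each counted once, of which 10 were below 0 and 0 were lower by 2-fold. The 3 higher peaks had 4 adjacent peaks, of which 2 were above 0 and 0 were higher by 2-fold. No 2-fold difference thus went on in the same direction past 2-fold in an adjacent peak.

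In the control, the start peak of Nkx2-6 resembled those of the other members in level, but it lay outside their range in sequence make-up. Per kb of peak, the control mean of Nkx2-6 was 43.7 normalized reads, inside the range of the other 8 (30.7 to 45.1). In the knockdown it was 9.90 against 29.0 to 41.5. Its GC content was 50.1%, below the other 8 (53.6% to 62.8%), and its CpG density of 2.77 per 100 bases lay below theirs (4.09 to 7.89). The ratio of observed to expected CpG was 0.44 against 0.56 to 0.86, and the repeat-masked share was 11.4% against 5.06% to 10.5%. For Nkx2-2 these ranges use the peak over the annotated gene start. Its peak over the start of the coding transcripts had 28.4 normalized reads per kb in the control and 24.7 in the knockdown. That peak held 4.34 CpG per 100 bases, and its repeat-masked share of 15.3% was above that of Nkx2-6. Over all 68 peaks CpG density had a rho of 0.52 with the overall mean and of -0.10 with the size of the difference. Among the other 8 start peaks, the lowest CpG density was that of Nkx2-5 (4.09 per 100 bases, 104.5% of the control). The highest was that of Nkx6-2 (7.89 per 100 bases, 90.2% of the control). Whether sequence make-up has a part in the low knockdown value was not tested.

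**Figure D4:**
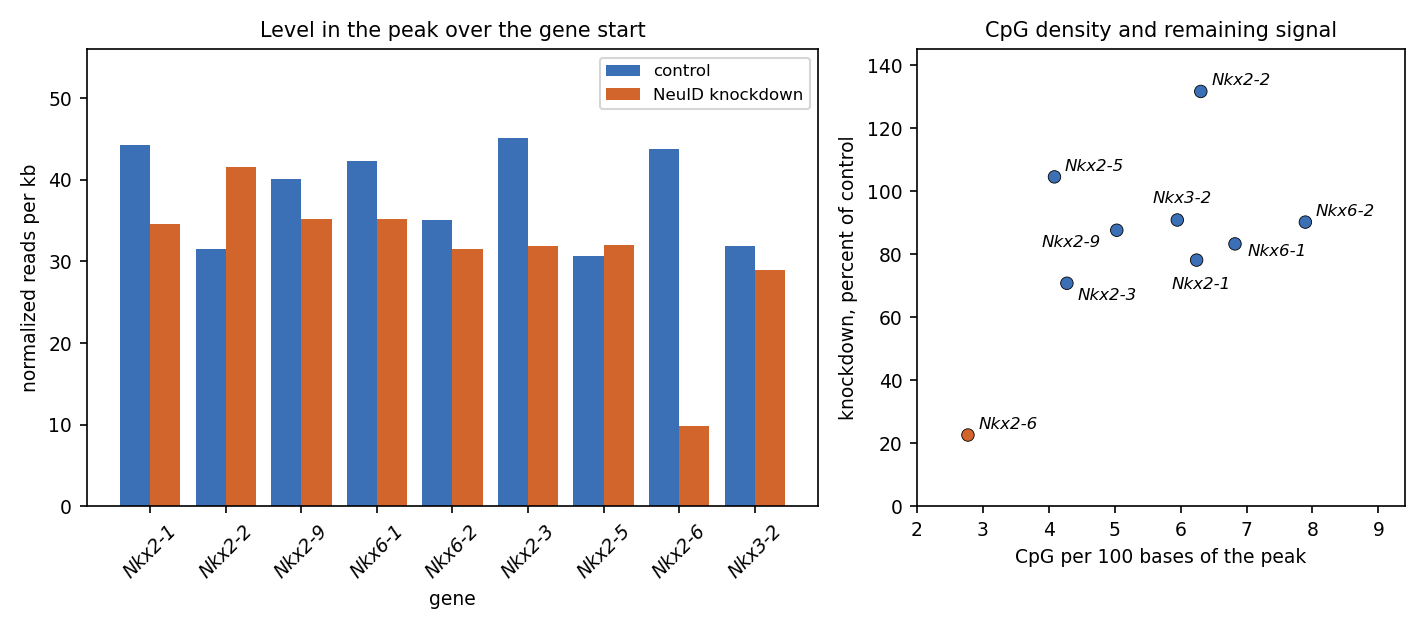
Left, normalized reads per kb in the peak over the gene start of 9 Nkx genes, as the authors' control (blue) and knockdown (orange) means. Right, the knockdown as a percent of the control against CpG per 100 bases of the same peaks. Nkx2-6 (orange) has a CpG density of 2.77 and, as the value that chose the family, 22.6% of the control.

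Other genes of the pathways in which these factors act were counted in the same way. The lists were drawn up with earlier results known, and each count is read against the background of 20.6% lower and 20.4% higher. That background holds mostly weak peaks, and where the log2 mean over all libraries was at least 5 it was 3.01% and 1.25%. Of list peaks that strong, 0 of 16 were lower for the ventral neural tube and 1 of 17 for the ganglionic eminences. For the pancreas 0 of 12 and for the heart 1 of 32 were lower, and each list had 0 higher. Of 59 peaks at 10 ventral neural tube genes, 7 were lower and 8 higher by 2-fold (median -0.03). They lay at Shh, the ligand of the pathway (3 lower, 1 higher), its receptor Ptch1 (1 higher) and its effector Gli1 (1 lower, 1 higher). The others lay at Pax6 (2 lower, 1 higher), Dbx2 (1 lower), Pax7 (2 higher), Olig2 and Dbx1 (1 higher each). The 9 peaks of Olig2 had a median difference of -0.20 and a sum of 105.3% of the control, so they show no single direction. Of 55 peaks at 7 genes of the ganglionic eminences, 6 were lower and 6 higher (median -0.03). Lhx6, which acts downstream of Nkx2-1 in interneurons, held 2 of each. Gbx1 and Gsx2 held 2 lower and 1 higher each, and Lhx8 and Gbx2 1 higher each. Of 42 peaks at 8 pancreas genes, 6 were lower and 4 higher (median -0.00), at Isl1 (3 lower, 1 higher), Pdx1 (1 lower, 2 higher), Mnx1 and Insm1 (1 lower each) and Ptf1a (1 higher).

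The heart list, which holds partners of Nkx2-5, had 68 peaks at 8 genes with 11 lower and 3 higher, a median of -0.21 and a sum of 88.2% of the control. Gata4, a zinc-finger partner of Nkx2-5, held 4 of the lower peaks and summed to 77.1% of the control. Isl1, which marks cardiac progenitors and which the pancreas list also holds, had 3 lower and 1 higher. Hand2, Gata6 and Tbx5 had 1 lower each, Tbx20 1 lower and 1 higher, and Hand1 1 higher. Hand2 summed to 77.2% and Hand1 to 120.7% of the control, so the genes of this list did not share 1 direction.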

How the data were processed

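H3K27me3 ChIP-seq was analysed in mouse primary hippocampal neurons after control or NeuID gapmers. The authors aligned reads to mm10 (GRCm38) using bowtie2. Broad peaks came from MACS2, and DiffBind compared the groups. For each peak the deposited table gives log2 normalized reads as a mean per group and an overall mean. Its fold change, p-value and FDR columns hold the authors' own comparison and were not used. The normalization and any input subtraction are not given in the sources used here. Neither the inputs nor single libraries were analysed here, and replicate spread and depth are unknown.

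Groups followed the sample titles. Peaks were joined to GENCODE M21 gene bodies extended by 5 kb, with an overlap of at least 1 base. Differences were taken between log2 means, and sums after conversion to normalized reads. A peak was counted as lower or higher at a 2-fold difference of the means, without a test. The members, lists and the comparisons were chosen with earlier results of these data known. Named in the text are all members with their start peaks, member peaks past 2-fold, peaks near the Nkx2-6 start peak, and list genes holding a peak past 2-fold. Other member peaks named were chosen after their values were seen. Sequences and CpG counts were read from the GRCm38 genome for peaks on its chromosomes. All 23642 of these peaks lay inside the chromosomes and 26 lay elsewhere. A comparison of the homeodomains was not run, and values of some list genes, with peaks nearest to them, are not reported here. Alternatives were a pseudocount, other windows, strength limits and folds. Scripts were tested on simulated data. Versions were pysam 0.24.0, matplotlib 3.10.9 and pandas 2.3.3 under Python 3.11.15.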

Additional observations from a re-analysis of the deposited data

How the results depend on the processing

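Of 81 alternative values, 61 lay within 1.5-fold of the reported one and 20 moved farther. The median difference of the family stayed between -0.21 and -0.12. The counts past 2-fold (11 lower, 3 higher, of 68 peaks) came to 5 and 0 of 68 on log2 of reads plus 5. With an overall mean of at least 4 they came to 5 (12.2%) and 0 of 41 peaks. They came to 4 and 0 of 28 over gene bodies and to 4 and 1 of 33 with a 1 kb window. Among 204 peaks assigned by the nearest gene start they came to 43 and 21. With a 10 kb window 6 were higher. With an overall mean of at least 5, chosen after seeing the data, 2 and 0 remained, of 28 peaks. At 1.5-fold 20 and 5 were counted, and at 3-fold 6 and 1. Over all listed peaks the shares (lower, higher) were 30.7% and 29.7% at 1.5-fold, 12.2% and 12.1% at 3-fold, 9.21% and 9.11% on reads plus 5, and 9.12% and 5.02% with an overall mean of at least 4. With the widest peak alone in place of the sum, the gene differences became 0.90 for Nkx2-2, 0.38 for Nkx2-3 and -2.14 for Nkx2-6. With the median of a gene's peaks, Nkx2-6 came to -0.23 (sum -0.71) and Nkx2-2 to -0.61 (sum -0.10), so that Nkx2-6 was not the lowest gene. The summed difference also changed sign at Nkx2-3 over the gene body (0.06), at Nkx2-5 with a 10 kb window (-0.04), and at Nkx3-2 over the gene body (-0.18), with a 1 kb window (-0.07) and with the widest peak alone (-0.14). The Nkx2-6 start peak itself came to -1.88 on reads plus 5. No paired analysis was possible because values per library were not analysed here, and for the same reason no library could be left out. Group means alone, without depth or spread, limit every value to a description.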

Other observations

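Of the other Nkx genes, Nkx1-1, Nkx1-2, Nkx2-4 and Nkx6-3 held 16 peaks, of which 4 were lower and 1 higher by 2-fold, against 20.6% and 20.4% of all listed peaks, with a median difference of -0.07 and a sum of 99.6% of the control. Nkx1-1 resembled Nkx2-5, with a 6341 bp start peak whose control mean was 7.75 and knockdown mean 7.70, and it had a downstream peak with 4.50 and 3.39. At Nkx1-2 the start peak had 4.82 and 4.50, while a weak intronic peak had 3.94 and 1.28 and an upstream peak 3.06 and 1.43, and all 4 peaks also overlap Fgfr2. At Nkx2-4, which lies near Nkx2-2 on chromosome 2, the start peak had 4.34 and 4.38, and a 231 bp downstream peak had 2.90 in the control and was listed at 0 in the knockdown. Nkx6-3 held a single peak, over its coding exons, with 3.59 and 4.79.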
